A study of Homo sapiens with 2 samples.

Results

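The 10 genes described here belong to the integrated stress response that runs through the transcription factors ATF4 and CHOP. They are ATF4, DDIT3 (which encodes CHOP), ATF5, ASNS, TRIB3, CHAC1, DDIT4, SESN2, STC2 and PPP1R15A. They were taken as a list of symbols that was chosen with earlier results of these data known. Each was matched to its row by Ensembl identifier, and all 10 were found among the 60880 rows of the expression table. RNA was sequenced from SUM-159, an established human line of triple-negative breast cancer. In 1 library the cells lacked PD-L1L2-SE, a super-enhancer which the study links to joint expression of the checkpoint ligands PD-L1 and PD-L2. The other library came from SUM-159 cells with the sgVector control. No drug, stress or time point is named for either, and the sources used here do not give whether the deficient cells were a clone or a pool. With 1 library per group, differences between cultures or clones cannot be told apart from loss of the element, and no difference below has a replicate check.

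In the integrated stress response, kinases that sense unfolded protein, amino acid shortage, viral RNA or haem and mitochondrial stress phosphorylate the translation factor eIF2. Most protein synthesis then slows, while the ATF4 messenger is translated more, so ATF4 RNA is a poor guide to ATF4 protein. ATF4 switches on genes for amino acid synthesis, transport and tRNA charging. Together with its target CHOP it also induces feedback inhibitors and, under lasting stress, genes of cell death.

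The deposited values are RPKM, which divide the reads of a gene by its length in kilobases and by the library's gene reads in units of 1000000. They rest on 16381546 reads for the deficient and 16206675 for the sgVector cells. CD274, the PD-L1 gene, stood at 0.698 against 7.16 RPKM and PDCD1LG2, the PD-L2 gene, at 1.19 against 5.32 RPKM, both lower in the deficient library. Of 10 markers of basal and mesenchymal breast lines all 10 were expressed in both libraries, 6 of them higher and 4 lower in the deficient library. They summed to 928 against 1227 RPKM, with VIM the most abundant at 390 against 746 RPKM. Of 10 luminal and epithelial markers 5 were expressed in both libraries. These 5, KRT18, KRT8, ERBB2, FOXA1 and GATA3, made up nearly all of that list's sum of 48.6 against 57.2 RPKM, while CDH1, PGR, EPCAM and KRT19 had 0 or 1 read in each library and ESR1 6 against 2. Leukocyte markers summed to 15.6 against 11.3 RPKM, nearly all of it CD14, and CD3E had 0 reads in both. Endothelial markers summed to 1.5 against 1.3 RPKM. Their part in the results below was not tested.

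Of the 10 genes 7 were lower in the deficient library, by amounts that differed widely from gene to gene. That count stands beside 53.6% of protein-coding genes that were lower, and it includes CHAC1, which had 9 and 18 reads. DDIT3 and ASNS were about 2-fold or more lower, TRIB3 and ATF4 were lower by less, and PPP1R15A, DDIT4 and ATF5 were higher. Differences are given as log2 ratios of (RPKM + 0.1), deficient over sgVector, a scale that understates the change of low genes. A floor of a mean of 1 RPKM over both libraries was set for counts and medians, and 9 of the 10 genes passed it, CHAC1 being the exception. Of these 9, 6 had a log2 ratio below 0 and 2, DDIT3 and ASNS, passed 2-fold in the lower direction. Of 10576 protein-coding genes past the floor, 53.6% were below 0 and 46.4% above, 2.07% were lower by 2-fold or more and 2.1% higher by as much. Over all 13552 genes past the floor, coding or not, these shares were 4.69% and 3.03%. Of the 9 genes, 0 were 2-fold higher. At 1.5-fold, 3 of the 9 (DDIT3, ASNS and TRIB3) were lower and 1 (ATF5) higher, beside 8.67% and 6.92% of protein-coding genes. The counting interval of the ratio lay wholly below 1 for 6 of the 9 and wholly above 1 for 3, beside 35.4% and 30.0% of protein-coding genes, so differences past counting error are common between these libraries. The median log2 ratio was -0.42 over the 9 genes and over all 10, beside -0.03 over all protein-coding genes past the floor. Because the list was chosen with earlier results of these data known, these counts and medians only describe it. In bulk RNA, fewer cells that express a gene and less RNA per cell cannot be told apart. The count of 2 rests on 1 gene at the edge of the threshold, since ASNS fell short of 2-fold under several scalings. Counts of reads on the 10 genes together were 11581, or 0.0707% of the deficient library, and 14261, or 0.0880% of the sgVector library.

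**Figure D1:**
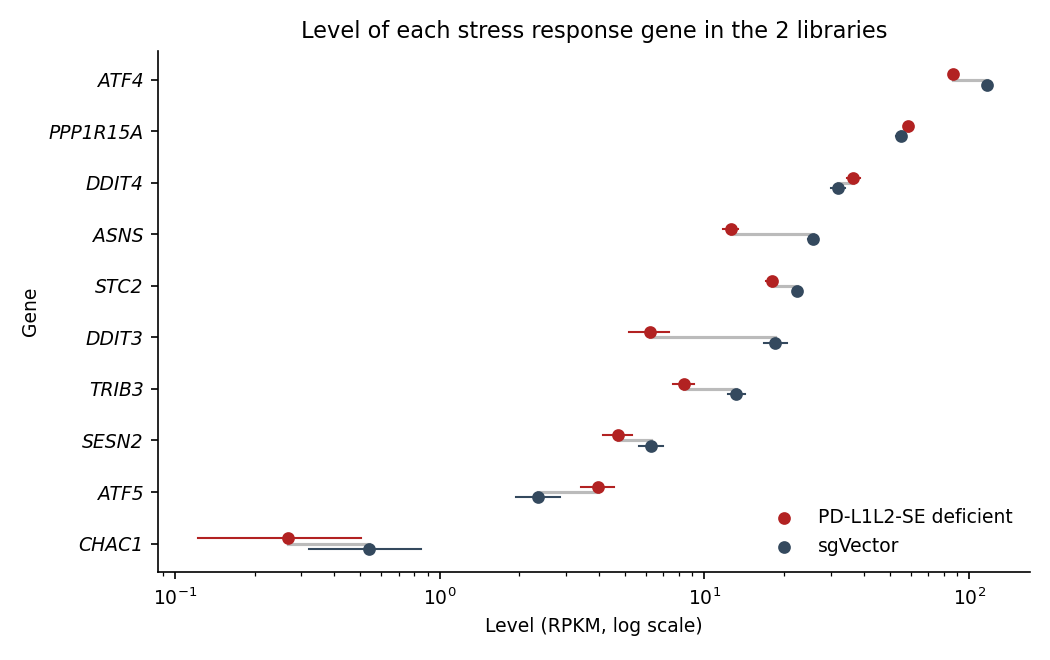
Level of each of the 10 genes in RPKM (log axis) in the PD-L1L2-SE deficient and the sgVector library, 1 library each, with exact 95% Poisson intervals that cover counting error only. The levels run from under 1 RPKM for CHAC1 to 87.1 and 116 RPKM for ATF4, and DDIT3 and ASNS show the widest gaps among the well measured genes.

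The transcription factors came out in different directions. ATF4, the central activator of the pathway, was the most abundant of the 10 genes in both libraries, at 87.1 RPKM in deficient and 116 RPKM in sgVector cells (3587 and 4744 reads). It was 1.34-fold lower (95% Clopper-Pearson interval of the read ratio 1.28 to 1.40). Such intervals cover counting error only, because there was 1 library per group. Reads amplified by PCR and lacking molecular identifiers need not stem from separate molecules, so the intervals may be too narrow even for counting error. A log2 ratio as low as that of ATF4, -0.42, was found in 15.4% of protein-coding genes past the floor, so this difference is of a common size. ATF4 (ENSG00000128272) lies on chromosome 22 from 39915700 to 39918690 in hg19, with 3 separate exon blocks and no exon shared with another gene.

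DDIT3, whose product CHOP pairs with other basic leucine zipper factors and promotes cell death in lasting stress, had the lowest ratio of the 10. With 133 reads it stood at 6.21 RPKM in the deficient cells, against 18.5 RPKM from 392 reads in the sgVector cells. That is 2.98-fold lower (2.44 to 3.65), a log2 ratio of -1.56 that 0.548% of protein-coding genes reached or passed. Set against ATF4 in the same library, which needs no scaling between libraries, DDIT3 had 7.13 RPKM for each 100 RPKM of ATF4 when the element was lacking and 15.9 with sgVector. DDIT3 (ENSG00000175197) lies on the minus strand of chromosome 12 from 57910371 to 57915520. It shares 518 of its 1307 exonic bases (39.6%) with other genes, 355 of them with MARS1 and 58 with MBD6, both on the opposite strand. The sources used here do not give whether counting used strand, so reads in these stretches cannot be assigned with certainty. MARS1 stood at 15.4 against 32.2 RPKM and MBD6 at 15.4 against 20.5 RPKM, both lower as well. Their part in the DDIT3 value was not tested.

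ATF5, a relative of ATF4 that is also controlled at translation and is known for the mitochondrial stress response, was the gene with the highest ratio. It had 3.95 RPKM (191 reads) in deficient and 2.36 RPKM (113 reads) in sgVector cells, 1.67-fold higher (1.32 to 2.13). For each 100 RPKM of ATF4 there were 4.53 RPKM of ATF5 in deficient and 2.03 in sgVector cells. A log2 ratio as high as its 0.72 was found in 4.48% of protein-coding genes. ATF5 (ENSG00000169136, chromosome 19, 50431959 to 50437192) shares 626 exonic bases with NUP62 on the opposite strand. NUP62, a nuclear pore gene, stood at 14.29 against 12.04 RPKM and was thus higher as well, and its part in the ATF5 value was not tested.

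Among the metabolic targets, ASNS encodes asparagine synthetase, a classic readout of amino acid shortage. It stood at 12.6 RPKM (919 reads) in deficient and 25.7 RPKM (1858 reads) in sgVector cells. It was 2.04-fold lower (1.89 to 2.21), with a log2 ratio of -1.03, and 1.93% of protein-coding genes were as low or lower. Relative to ATF4 its log2 ratio was lower by a difference of -0.61 (-0.74 to -0.48). ASNS (ENSG00000070669) lies on the minus strand of chromosome 7 from 97481430 to 97501854 in 14 exon blocks, none shared with another gene. CHAC1 encodes an enzyme that breaks down glutathione and is usually among the strongest markers of ATF4 activity. It was barely expressed, with 9 reads (0.267 RPKM) in deficient and 18 reads (0.540 RPKM) in sgVector cells. Its interval, from 5.11-fold lower to 1.16-fold higher, spans no change, so a difference was not detectable at this depth. CHAC1 (ENSG00000128965) lies on chromosome 15 from 41245160 to 41248717.

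ASNS and CHAC1 were also the genes of the 10 whose promoter window holds the core of the C/EBP-ATF response element, the composite site that ATF4 dimers bind. The letters searched were TGATGNAA on both strands (TTNCATCA as read along the other strand), in RefSeq windows of GRCh38.p14 from 250 bases before to 50 bases after each gene start. The windows of MARS1 and AARS1, the tRNA synthetase genes with the lowest ratios among those described further on, are shown beside them. They were picked for these ratios among the genes that carry the letters, and SLC7A1 (0.66), SLC38A1 (0.42), PPP1R15B (0.33), BCAT1 (0.19) and NARS1 (0.12) carry them too and were above 0. Each is given 5′ to 3′ on the gene's strand with the match in capitals, ASNS at chr7:97872458-97872487 (minus strand), CHAC1 at chr15:40953251-40953280 (plus), MARS1 at chr12:57488053-57488082 (plus) and AARS1 at chr16:70289675-70289704 (minus).
ASNS: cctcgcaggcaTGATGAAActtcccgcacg
CHAC1: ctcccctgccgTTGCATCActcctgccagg
MARS1: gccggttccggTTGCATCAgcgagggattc
AARS1: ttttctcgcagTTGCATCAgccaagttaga

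The match of ASNS lies on the gene's own strand, 68 to 61 bases before the start, and that of CHAC1 on the other strand, 209 to 202 bases before it. In MARS1 the match spans the start itself, and in AARS1 it lies 187 to 180 bases before it. All 10 genes have at least 1 window, 17 in all, and 2 of these 17 hold the letters, against 1270 of 35116 windows in the genome (3.62%). No match says only that these letters are not in this window. Over protein-coding genes past the floor with a window, the 244 with the letters had a median log2 ratio of -0.01 and the 8455 without had -0.04. A match is a description of the sequence, not a site shown to be bound.

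The feedback and growth brakes of the pathway did not move as 1 block. TRIB3, a pseudokinase that binds ATF4 and CHOP and dampens them, stood at 8.34 RPKM (469 reads) in deficient and 13.2 RPKM (735 reads) in sgVector cells, 1.58-fold lower (1.41 to 1.78). PPP1R15A encodes GADD34, which guides a phosphatase to eIF2 and so ends the response. It stood at 58.7 against 55.0 RPKM (2975 and 2755 reads), with a log2 ratio of 0.10 (0.02 to 0.17 in log2), so the libraries were nearly level. DDIT4 encodes REDD1, an inhibitor of the growth kinase complex mTORC1, and was 1.14-fold higher (1.05 to 1.24) at 36.45 against 31.96 RPKM (1229 and 1066 reads). SESN2, a leucine sensor that also restrains mTORC1, was 1.34-fold lower (1.14 to 1.58) at 4.70 against 6.31 RPKM (266 and 353 reads). These brakes of mTORC1 thus lay on opposite sides of no change, by small amounts. STC2 encodes stanniocalcin 2, a secreted glycoprotein induced by ATF4, and was 1.25-fold lower (1.17 to 1.33) at 17.96 against 22.42 RPKM (1803 and 2227 reads). DDIT4 shares 847 of its exonic bases with an antisense gene that is listed at 0 in both libraries.

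In hg19, TRIB3 (ENSG00000101255) lies on chromosome 20 from 343479 to 378203, and PPP1R15A (ENSG00000087074) on chromosome 19 from 49375649 to 49379314. DDIT4 (ENSG00000168209) lies on chromosome 10 from 74033678 to 74035794, SESN2 (ENSG00000130766) on chromosome 1 from 28586038 to 28609002, and STC2 (ENSG00000113739) on the minus strand of chromosome 5 from 172741716 to 172756506. The other 4 are on the plus strand, and the exons of TRIB3, SESN2, STC2 and PPP1R15A are shared with no other gene.

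**Figure D2:**
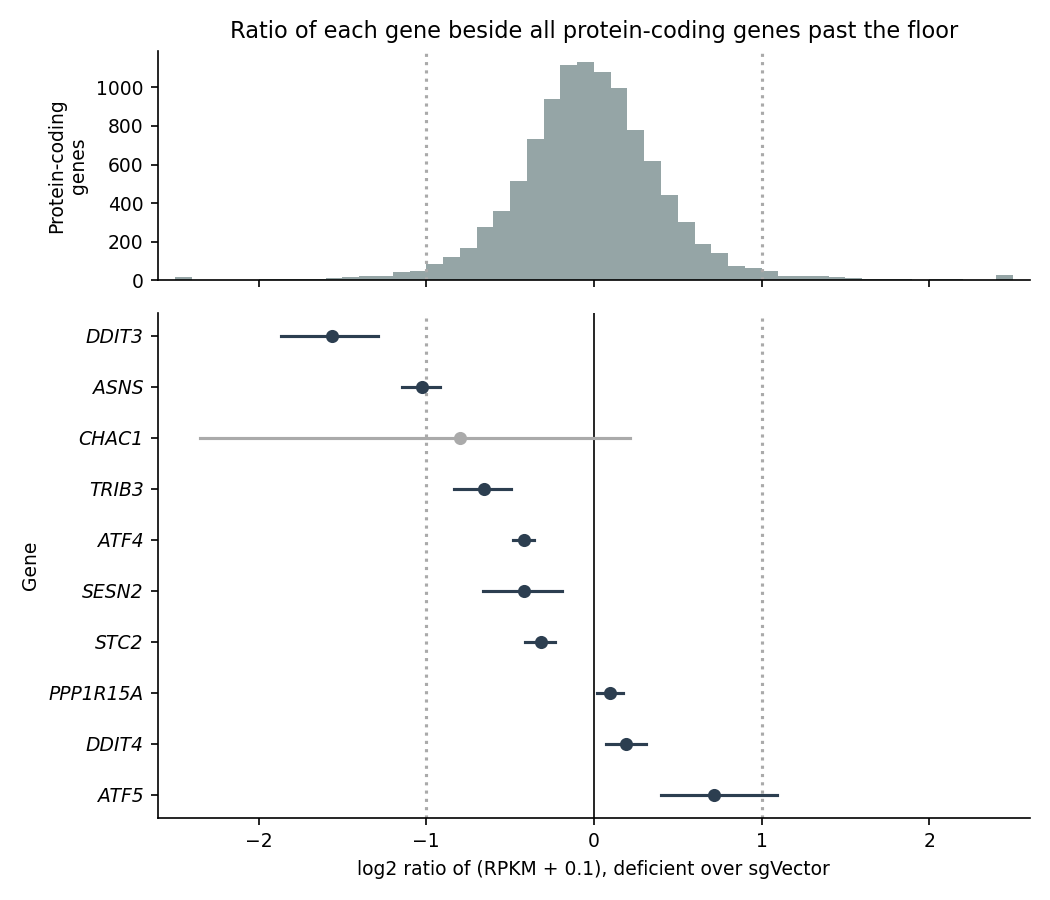
Below, the log2 ratio of (RPKM + 0.1) of each gene, deficient over sgVector (points), with the 95% interval of the read ratio (lines) and CHAC1, under the floor, in grey. Above, the number of protein-coding genes past the floor in bins of that ratio, with values beyond the ends placed in the outermost bins, and dotted lines at 2-fold. DDIT3 at -1.56 lies in the lower tail and ATF5 at 0.72 toward the upper one, while ATF4, SESN2, STC2, PPP1R15A and DDIT4 lie within the bulk.

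The order of levels, compared per length in RPKM, was nearly the same in both libraries. ATF4, PPP1R15A and DDIT4 led in that order in each, and SESN2, ATF5 and CHAC1 the last. ASNS changed places with STC2, and DDIT3 with TRIB3, between the sgVector and the deficient library. Neighbours in this order had separate 95% Poisson intervals, except DDIT3 with SESN2 and SESN2 with ATF5 in the deficient library. In the sgVector library ATF4 was exceeded or matched by 2.0% of protein-coding genes past the floor, DDIT3 by 21.2% and ATF5 by 84.7%. DDIT3, DDIT4 and ATF5 share 39.6%, 41.2% and 23.7% of their exonic bases with other genes. How reads there were counted is not given, so the places of these genes, and the change of DDIT3 with TRIB3, are uncertain beyond the Poisson intervals.

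The 10 ratios differed from each other by more than counting error in most comparisons. Pairs of other genes were not counted in this way, so this is not shown to be particular to the 10. Over all protein-coding genes past the floor, 35.4% had counting intervals wholly below 1 and 30.0% wholly above. Of the 45 pairs of genes, the 95% interval of the difference between their log2 ratios (normal approximation on read counts) spanned 0 in 12, and 7 of these 12 hold CHAC1 with its few reads. The other 5 pairs lay among ATF4, SESN2, STC2 and TRIB3, or were DDIT4 with PPP1R15A. SESN2 kept step with ATF4, at 5.40 RPKM for each 100 RPKM of ATF4 in deficient and 5.42 in sgVector cells, a log2 difference of -0.0049 (-0.24 to 0.23). PPP1R15A and DDIT4 stood higher relative to ATF4, by log2 differences of 0.51 (0.42 to 0.61) and 0.61 (0.47 to 0.74). Because such differences compare genes within a library, scaling between libraries leaves them unchanged.

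Over all protein-coding genes the ratio ran lower with higher GC content, with a median log2 ratio of -0.20 in the highest of 5 equal classes against 0.14 in the lowest. Of the 10 genes 6 fall in that highest class and 9 lie above the protein-coding median of 48.0% GC. ASNS, at 47.0%, and DDIT3, at 49.7%, have the lowest GC content of the 10 and the lowest ratios. Of the genes in the highest class, ATF5, DDIT4 and PPP1R15A were above 0 and TRIB3, CHAC1 and SESN2 below. The part of GC content in the 10 ratios was not tested. Their exonic lengths run from 1307 to 6128 bases, mostly under the protein-coding median of 5127, and shorter genes also had lower ratios (class medians of -0.16 for the shortest to 0.09 for the longest). After both trends were removed ATF4 stood at -0.20, SESN2 at -0.19, TRIB3 at -0.42, CHAC1 at -0.52, STC2 at -0.24, ASNS at -0.99 and DDIT3 at -1.41. On the same corrected scale PPP1R15A stood at 0.33, DDIT4 at 0.43 and ATF5 at 0.96. No gene of the 10 changed sign, while the values of ATF4, SESN2, TRIB3 and CHAC1 shrank by more than 1.5 times and those of PPP1R15A and DDIT4 grew by more than that.

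Genes that neighbour DDIT3 on chromosome 12 were lower too. Within 500 kb of its start, 25 of 26 other protein-coding genes past the floor had a log2 ratio below 0, with a median of -0.54. Over all protein-coding genes past the floor, 53.6% were below 0 and 2.07% at least 2-fold lower. Of the 26 neighbours, 5 were at least 2-fold lower. These were STAC3 at -1.87, DTX3 at -1.56, NXPH4 at -1.13, CYP27B1 at -1.12 and MARS1 at -1.06. Next in order came GLI1 at -0.94, METTL1 at -0.75, TSPAN31 at -0.72, SHMT2 at -0.70, PIP4K2C at -0.69, NAB2 at -0.65 and TSFM at -0.62. DCTN2, ARHGEF25, MARCHF9, B4GALNT1, ATP23, EEF1AKMT3, STAT6, CDK4 and MBD6 lay between -0.54 and -0.41, and NEMP1, LRP1, R3HDM2 and OS9 between -0.36 and -0.29. CTDSP2, at 0.27, was the 1 neighbour above 0. STAC3 and DTX3 were the 2 neighbours with ratios below that of DDIT3. DDIT3 stood -1.02 below the median of its neighbours, so the gap to its surroundings was smaller than the gap between the libraries. MARS1 and SHMT2, which are ATF4 targets themselves, lie in this stretch, so membership of the pathway and position cannot be told apart for them.

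The other genes had mixed surroundings. ASNS had 3 neighbours past the floor, with a median of -0.03 and none as low as ASNS itself, and CHAC1 had 16 with a median of 0.17. Around TRIB3, 8 of 9 neighbours were below 0, beside 53.6% of all protein-coding genes past the floor. The median of these neighbours was -0.34, and TRIB3 stood -0.32 below it. Around ATF4 4 of 8 neighbours were below 0, with a median of 0.01. ATF5 stood above all 25 of its neighbours, whose median was -0.09, and PPP1R15A above 19 of 24. Neighbours of STC2, DDIT4 and SESN2 had medians of 0.31, -0.16 and -0.11. Whether position played a part in any of the 10 ratios was not tested.

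**Figure D3:**
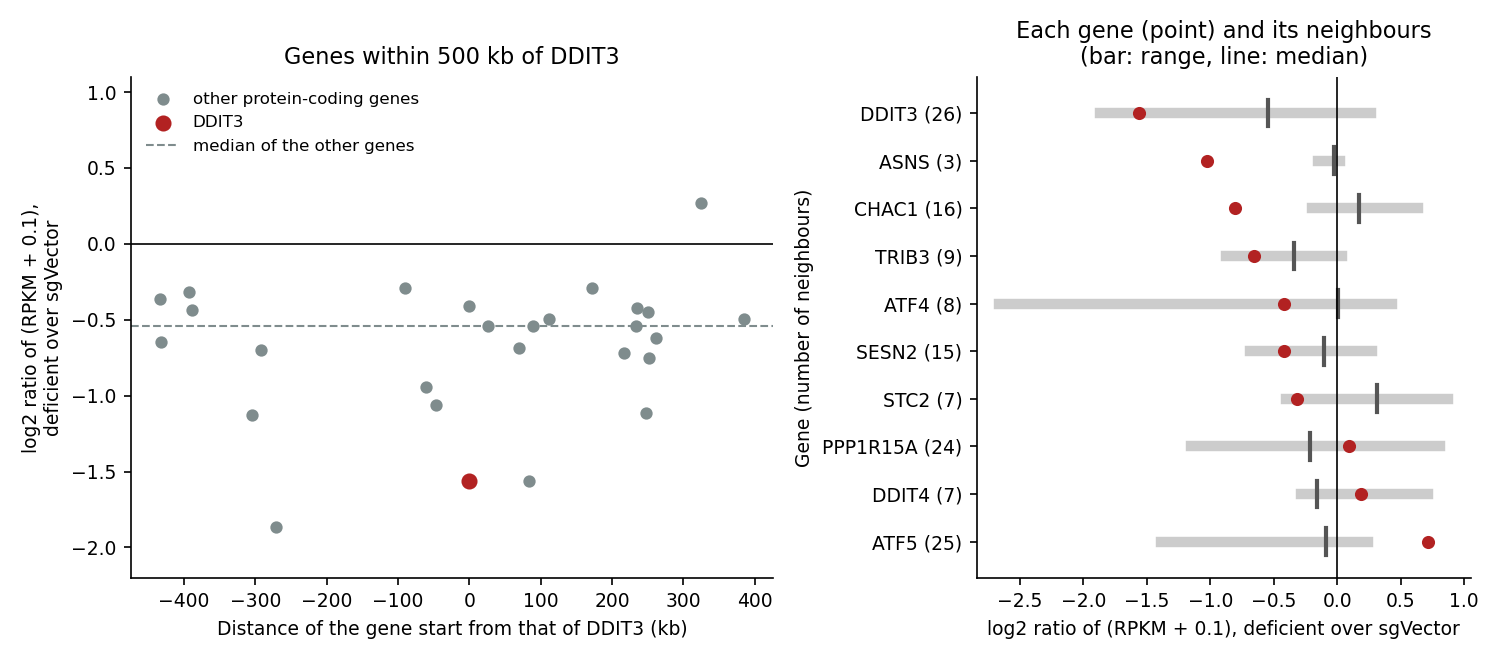
Left, log2 ratio of (RPKM + 0.1), deficient over sgVector, of DDIT3 and the 26 other protein-coding genes past the floor within 500 kb, by distance of the gene starts in kb, with the median of -0.54 dashed. Right, each of the 10 genes (point) with the range (bar) and median (line) of its neighbours. The point of ASNS lies below and that of ATF5 above the range of their neighbours. The point of CHAC1 also lies below, but it is under the floor and rests on 9 and 18 reads. Its interval (-2.35 to 0.21 in log2) takes in the median of its neighbours, 0.17.

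Upstream of ATF4 stand the genes that sense stress and handle eIF2. Of 23 genes for eIF2 kinases, eIF2, its exchange factor eIF2B and the phosphatase, all past the floor, 13 were below 0, beside 53.6% of protein-coding genes. Of these 23, 0 reached 2-fold in either direction, beside 2.07% and 2.1% of protein-coding genes. Their median of -0.04 changed sign with centring, TPM and TMM scaling. The 5 eIF2B subunit genes were all below 0, EIF2B1, EIF2B2 and EIF2B3 lowest at -0.57, -0.53 and -0.49. Of the kinases, EIF2AK3 (PERK, the endoplasmic reticulum sensor) stood at -0.16 and EIF2AK1 (the haem-regulated kinase) at -0.02. EIF2AK4 (GCN2, the amino acid sensor) stood at 0.27 and EIF2AK2 (PKR, an interferon-induced sensor of double-stranded RNA) at 0.44. DNAJC3, a chaperone that restrains PERK and PKR, was highest at 0.70, and PPP1R15B, the constitutive counterpart of PPP1R15A, stood at 0.33.

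Basic leucine zipper factors that pair or act with ATF4 and CHOP lay on both sides of 0. Of 28 past the floor 17 were above 0, beside 46.4% of protein-coding genes. Their median of 0.21 stayed above 0 under every alternative tried. FOS (2.23) and HLF (1.14) were at least 2-fold higher, beside 2.1% of protein-coding genes. FOSL1 (-1.19) was at least 2-fold lower, beside 2.07%. HLF fell short of 2-fold with a pseudocount of 1, and FOSL1 with the GC and length correction, at -0.94. FOS had 480 reads in deficient and 97 in sgVector cells. CEBPB, a partner of both ATF4 and CHOP, was abundant and stood at 0.73 (262 against 158 RPKM), next below HLF. JUND (-0.72) and CREB3 (-0.32) were the next lowest after FOSL1.

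Targets were grouped by function. Of 15 ATF4 targets in amino acid synthesis and folate-linked metabolism past the floor, 14 were below 0, beside 53.6% of protein-coding genes, with a median of -0.35. PHGDH and PSAT1, the first steps of serine synthesis, were at least 2-fold lower, beside 2.07% of protein-coding genes. PHGDH stood at 8.20 against 22.8 RPKM (log2 ratio -1.46) and PSAT1 at 23.2 against 47.1 RPKM (-1.02), the latter falling short of 2-fold under 4 of the alternatives. GPT2, an alanine transaminase gene, followed at -0.92. BCAT1 (0.19) was the 1 gene above 0, after MTHFD1L (-0.01) and PSPH (-0.03). Without SHMT2, which neighbours DDIT3, 13 of 14 were below 0 and the median was -0.30.

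Genes for tRNA charging and export were lower as well, by less. Of 14, 12 were below 0, beside 53.6% of protein-coding genes, with a median of -0.19. MARS1, the methionyl-tRNA synthetase gene beside DDIT3, stood at 15.4 against 32.2 RPKM (1769 and 3666 reads). It was the 1 gene past 2-fold, beside 2.07% of protein-coding genes. After the GC and length correction it missed 2-fold, at -0.98. The alanyl and tyrosyl enzymes AARS1 and YARS1 stood at -0.72 and -0.50, while LARS1 (0.13), NARS1 (0.12) and EPRS1 (-0.02) were highest. Without MARS1, 11 of 13 were below 0 with a median of -0.15. The promoter letters shown above were present in 7 of 11 genes of this list that have a window, in 5 of 10 of the transport list described next and in 1217 of 27305 genes (4.46%) in all. The ratios of the 7 ran from -1.06 for MARS1 to 0.12 for NARS1.

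Amino acid transporters lay on both sides of 0. Of 11 past the floor 4 were below 0, beside 53.6% of protein-coding genes, and the median was 0.15. Of these 11, 0 reached 2-fold in either direction, beside 2.07% and 2.1% of protein-coding genes. SLC6A9, a glycine transporter gene, and SLC1A5, a glutamine transporter gene, were lowest at -0.80 and -0.55, and SLC3A2, the heavy chain that pairs with several transporters, stood at -0.07. SLC7A1, SLC36A4 and SLC38A1 were highest at 0.66, 0.51 and 0.42. No test of the difference between these lists is possible with 1 library per group.

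A wider set of ATF4 and CHOP targets was centred near 0, with 16 of 34 past the floor below 0, beside 53.6% of protein-coding genes. Its median of 0.05 changed sign to -0.0040 with no floor. PMAIP1, which encodes the pro-apoptotic NOXA, and GPNMB, a transmembrane glycoprotein gene, were at least 2-fold higher, at 2.04 and 1.69. Of protein-coding genes 2.1% were as much higher. CLGN followed at 0.83, from 76 and 40 reads. EIF4EBP1, a repressor of cap-dependent translation, was lowest at -0.89 (70.3 against 130 RPKM), then E2F7 (-0.52) and GDF15 (-0.40). The endoplasmic reticulum chaperone genes of the ATF6 and XBP1 arms, which respond to unfolded protein through other sensors, had 8 of 20 below 0, 0 past 2-fold and a median of 0.14. The shares over protein-coding genes were 53.6% below 0, 2.07% at least 2-fold lower and 2.1% higher. CANX (0.86), SEL1L (0.46) and ATF6 (0.34) were highest, and SDF2L1 (-0.56), SYVN1 (-0.33) and SEC61B (-0.19) lowest. HSPA5, the main chaperone of that compartment, stood at 95.5 against 99.4 RPKM.

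**Figure D4:**
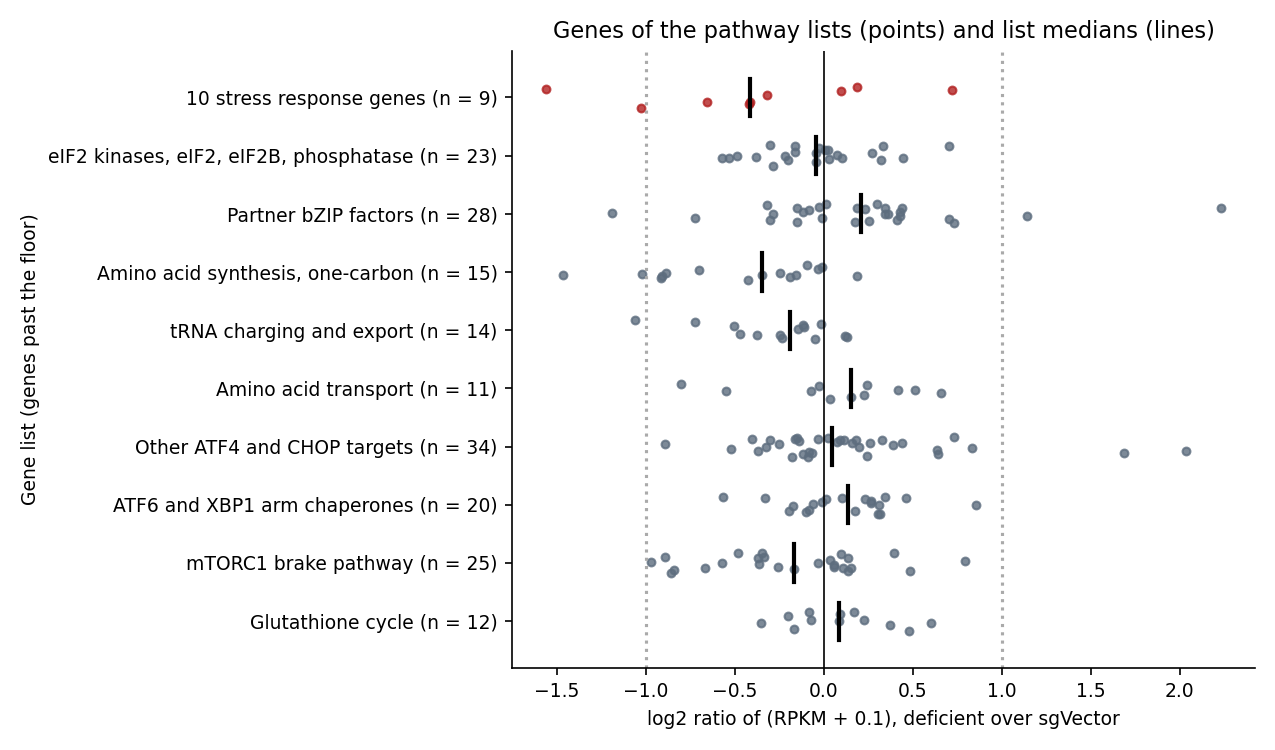
log2 ratio of (RPKM + 0.1), deficient over sgVector, of each gene past the floor (points, spread vertically for legibility) in 10 gene lists, with the list median (line) and dotted lines at 2-fold. The points of amino acid synthesis (median -0.35) and tRNA charging (-0.19) lie mostly left of 0, those of transport (0.15) and the chaperones (0.14) mostly right of it.

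The genes that work beside the brakes and enzymes were mixed. Of 25 genes of the mTORC1 pathway past the floor 14 were below 0, beside 53.6% of protein-coding genes, with a median of -0.17 and 0 past 2-fold. SEC13 (-0.97), EIF4EBP1 (-0.89) and ULK1 (-0.86) were lowest, and EIF4EBP2 (0.79), RRAGD (0.49) and MIOS (0.40) highest. Of 12 genes of the glutathione cycle around CHAC1, 5 were below 0, with a median of 0.09 and 0 past 2-fold. For the mTORC1 and glutathione lists alike, the count of 0 stands beside 2.07% of protein-coding genes at least 2-fold lower and 2.1% higher. OPLAH, LAP3 and GCLM stood at 0.60, 0.48 and 0.37, and GSS, GPX4 and GGT7 at -0.35, -0.20 and -0.16.

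The nearest paralogues gave a mixed picture. STC1 (-0.76, 1417 against 2375 reads) and TRIB2 (-0.48) were lower, as STC2 and TRIB3 were. PPP1R15B (0.33) was above 0, as PPP1R15A was, while TRIB1 (0.28) and SESN1 (0.47) were above 0 where TRIB3 and SESN2 were below. The counting intervals of CHAC2 (0.08, from -0.57 to 0.75) and ASNSD1 (0.04, from -0.15 to 0.22) span no change, so no direction is given for them. SESN3 (0.38) and DDIT4L (1 read against 11) lay under the floor.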

How the data were processed

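RNA-seq of 2 SUM-159 libraries was used, the first from PD-L1L2-SE deficient and the other from sgVector cells. The labels' protocols name both poly(A) selection and ribosomal RNA removal, and the labels call the molecule polyA RNA. The submitters' processing notes name Subread, featureCounts 1.6.4, GRCh37 and hg19. For aligner, annotation release and strand setting, nothing is given in the sources used here. The authors deposited RPKM values with exon coordinates and gene length. RPKM times length is a whole multiple of 1 step per library for 100% of values (within 1e-06 of a read), which gave the reads used for intervals.

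Symbols came from a gene name table (56373 of 60880 rows) and gene types and GC content from GENCODE release 29, from which no coordinates were taken. The second copies of pseudoautosomal genes, on chromosome Y (41 entries), were dropped. The log2 ratio used a pseudocount of 0.1 RPKM, counts and medians a floor of a mean of 1 RPKM (13552 genes, 10576 protein-coding), and calls a 2-fold threshold. GC content was known for 98.9% of genes past the floor. No p-value was computed, because there was 1 library per group. Corrections for GC content and length were lowess fits (share 0.3) on protein-coding genes. TMM trimmed 30% of log ratios and 5% of mean levels at each end. Promoter windows are from RefSeq on GRCh38.p14.

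The 10 genes and all gene lists were chosen with earlier results of these data known. Lists were found in full except SAMTOR and PECAM1, which are not analysed here. Named were all 10 genes, their paralogues, the protein-coding neighbours of DDIT3 and the 3 highest and 3 lowest genes of each list except the marker lists. Of the genes with shared exons, MARS1, MBD6 and NUP62 were named and others were not. Other genes were named after their values were seen. Lists share some genes, such as CEBPB and EIF4EBP1. On simulated libraries with counting error only, 99.0% of 3-fold lower genes were called at least 2-fold lower and 0 of 10376 unchanged genes were called. The simulation holds no variation between cultures, clones or preparations. It checks the calculation and gives no rate of false calls for the real libraries. Tools were Python 3.11.15 with matplotlib 3.10.9, statsmodels 0.14.6, scipy 1.17.1, pandas 2.3.3 and numpy 2.4.6.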

Additional observations from a re-analysis of the deposited data

How the results depend on the processing

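The 10 log2 ratios kept their sign under all 9 alternatives tried for each (pseudocounts of 1 and 0.01, centring, TPM, TMM, upper quartile, no mitochondrial genes, GC and length correction, and values relative to neighbours), and 80 of 90 values stayed within the counting interval. The number of genes at least 2-fold lower went from 2 to 1 with a pseudocount of 1, centring, TPM, TMM, the GC and length correction, without genes of shared exons, without DDIT3, relative to neighbours and with the interval wholly past 2-fold. ASNS ranged from -1.05 to -0.97 over its alternatives. With shared exons or DDIT3 left out, ASNS was the 1 gene left by construction. At 1.5-fold 3 were lower and 1, ATF5, higher, beside 8.67% and 6.92% of protein-coding genes. The median moved from -0.42 to -0.20 with the GC and length correction and stayed between -0.44 and -0.32 otherwise. DDIT3 stood at -1.02 relative to its neighbours. The median of all genes moved by at most 0.05 under any scaling. Of 288 list counts 255 stayed within 1.5 times. The cause was not tested for these changes. The values relative to neighbours, without DDIT3 and without its neighbours were chosen after seeing the data. Depth limits CHAC1, with 9 and 18 reads. No paired analysis was possible because each group has 1 library.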

Other observations

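Genes that other inputs to DDIT4, SESN2 and PPP1R15A also control were described by the same measure. Of 10 glucocorticoid-induced genes, a class to which DDIT4 belongs, 7 were above 0, beside 46.4% of protein-coding genes. Their median log2 ratio was 0.14. ZBTB16 (1.35), TSC22D3 (0.63) and FKBP5 (0.47) were highest, and CRISPLD2 (-1.51), SGK1 (-0.50) and PER1 (-0.00083) lowest. TSC22D3, which encodes the glucocorticoid-induced leucine zipper protein, stood at 144 against 93.2 RPKM. Of 15 p53 targets past the floor 6 were below 0, beside 53.6% of protein-coding genes, with a median of 0.04. PMAIP1 (2.04), RRM2B (0.85) and BTG2 (0.58) were highest, and the cell cycle inhibitor gene CDKN1A (-1.13), TP53I3 (-0.57) and GDF15 (-0.40) lowest. Of 13 hypoxia targets 7 were below 0, with a median of -0.08. ADM (1.0), BNIP3 (0.49) and NDRG1 (0.33) were highest and PFKFB4 (-0.70), P4HA1 (-0.61) and VEGFA (-0.32) lowest.

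Of the ATF4 and CHOP targets in the synthesis, transport, tRNA and wider lists, 9 lay under the floor. ADM2 had 0 reads in the deficient library against 24, VLDLR 8 against 49, CBS 15 against 66, ALDH1L2 21 against 37 and INHBE, which lies near DDIT3, 12 against 59. DDR2 had 43 against 44, FGF21 and CDSN each 1 against 0, and SLC7A3 0 in both.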
